A study of Homo sapiens with 12 samples.

Results

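Cytosolic ribosomal protein genes were taken as the rows of the gene count table whose symbol is RPL or RPS followed by a number, with an optional A, L or X, together with RPLP0, RPLP1, RPLP2 and RPSA. Pseudogenes and the RPS6K kinases do not match this rule. It selected 81 of 25370 gene rows, of which 46 encode proteins of the large (60S) subunit, 3 the acidic P stalk of that subunit and 32 proteins of the small (40S) subunit. All 81 had at least 1 count and entered the tests, which covered 21132 genes.

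The libraries were made from T47D, an estrogen receptor-positive human breast cancer cell line. Cells were held in RPMI medium with 5% charcoal-stripped serum for 48 hours and without serum for a further 24 hours, so all groups, the vehicle group included, had been depleted of steroid hormones and then starved of serum. They then received vehicle, 10 nM anastrozole, 0.1 nM E2 (17β-estradiol), or anastrozole and E2 at those doses, with 3 libraries (a, b and c) per group. The labels give the molecule as polyA RNA, while the extraction protocol and the study's methods speak of total RNA. The treatment time is given as 12 hours in the sample labels and as 24 hours in the study's methods. Anastrozole is a nonsteroidal aromatase inhibitor, and the design asks whether it changes transcripts on its own and together with E2. The labels do not say whether the 3 libraries of a group came from separate cultures, so p-values measure the spread between these libraries, which may be technical.

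Libraries held between 9914253 and 17009776 counts on genes, and between 32.7% and 33.5% of all alignments were counted on a gene. All 7 luminal markers examined were present (ESR1 at 163 to 188 CPM, counts scaled to an equal library total). The 4 blood markers summed to at most 0.278 CPM in any library. Among 5 fibroblast markers only COL1A1 reached 1 CPM, at 80.04 to 99.9 CPM, and COL1A2, COL3A1, DCN and LUM were at or below 0.505 CPM in every library. In bulk RNA, fewer cells of a type and less RNA per cell cannot be told apart.

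A ribosome is built from ribosomal RNA and roughly equal numbers of most of its proteins, and the genes for those proteins are transcribed from highly active promoters. Their mRNAs belong to the 5' terminal oligopyrimidine (TOP) class: they begin with a cytosine followed by an unbroken run of C and T, through which their translation follows mTORC1 and the binding protein LARP1. MYC and growth signals raise the output of these genes, and estrogen is known as a growth signal for luminal breast cancer cells. The values below are mRNA levels and do not measure translation or the number of ribosomes.

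The start sites of the family show this feature. RefSeq promoter windows (GRCh38.p14) were held for 64 members, with 79 start sites between them. A C at the start site followed by 4 bases of C or T was present at 46 of these 79 start sites (58.2%), against 4.07% of all 35116 start sites in the same table. The letters CTTTCC, searched on the transcribed strand only within 15 bases on either side of the start, were found at 24.1% of member start sites and at 1.57% of all. These 6 letters are part of a run of pyrimidines, so the 2 measures overlap. The windows below run 5' to 3' on the transcribed strand from 15 bases before the start, and capitals mark the unbroken run of C and T that holds the start site. No window was held for RPL8 or RPS2. RPL13 and RPS19 have start sites both with and without the feature and are not shown. The members shown are some of those on which the comparisons below turn, RPS6 and RPLP0 as reference members, and members without the feature.

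RPS16 (chr19:39435935-39435964, minus strand): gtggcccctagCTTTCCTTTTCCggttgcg
RPL28 (chr19:55385917-55385946, plus strand): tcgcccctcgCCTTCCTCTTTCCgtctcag
RPLP2 (chr11:809952-809981, plus strand): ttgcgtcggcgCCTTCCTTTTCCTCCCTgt
RPL18 (chr19:48619164-48619193, minus strand): accccagcccgTTCTCTCTTTCCggacctg
RPS9 (chr19:54200843-54200872, plus strand): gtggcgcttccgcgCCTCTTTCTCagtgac
RPL35 (chr9:124861943-124861972, minus strand): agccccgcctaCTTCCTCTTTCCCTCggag
RPLP1 (chr15:69452803-69452832, plus strand): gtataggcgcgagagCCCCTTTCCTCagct
RPL22 (chr1:6199581-6199610, minus strand): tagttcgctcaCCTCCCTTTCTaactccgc
RPS24 (chr10:78033848-78033877, plus strand): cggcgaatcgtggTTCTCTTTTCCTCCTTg
RPS6 (chr9:19380222-19380251, minus strand): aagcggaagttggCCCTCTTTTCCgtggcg
RPLP0 (chr12:120201097-120201126, minus strand): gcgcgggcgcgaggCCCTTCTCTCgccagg
RPS27 (chr1:153990747-153990776, plus strand): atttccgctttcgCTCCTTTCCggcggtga
RPS27L (chr15:63157463-63157492, minus strand): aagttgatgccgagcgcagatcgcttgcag
RPL10L (chr14:46651767-46651796, minus strand): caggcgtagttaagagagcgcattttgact
RPS15 (chr19:1438381-1438410, plus strand): tgcgcaggcgcggaCCaaagcgatctcttc

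RPS27 and its paralog RPS27L differ in this window: RPS27 has the run at its start and RPS27L does not. The annotated start of RPS15 holds CC only. An annotated start may lie some bases from the start used in T47D cells.

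Together the members took 5.32% of all gene counts in the median library, from 4.89% in anastrozole library c to 5.73% in anastrozole plus E2 library a. The share was 5.28% ± 0.210 (SD, n = 3) with vehicle, 5.23% ± 0.302 with anastrozole, 5.28% ± 0.223 with E2 and 5.48% ± 0.221 with anastrozole plus E2. All groups overlapped. In an exact two-sided permutation test of each of the 6 pairs of groups, the smallest p was 0.4 and every adjusted p was 1, in a design whose smallest possible p is 0.1. The share was largest with the combination, but the differences were within the spread between libraries.

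By CPM the 10 most abundant members were RPLP0, RPL7A, RPL7, RPS3, RPS18, RPL4, RPL3, RPL41, RPS2 and RPL13. RPLP0, the core of the P stalk, led with a mean of 2205 CPM, and RPL13 closed the 10 with 1274 CPM. These positions change once length is taken into account. Per kilobase of coding sequence RPL41, whose coding sequence is only 75 bases long, stood highest at 18263 CPM per kb, followed by RPS18 at 3418 CPM per kb and RPS24 at 3233 CPM per kb. The coding length leaves out untranslated ends, which weigh most for so short a gene. The median of 74 members with at least 10 CPM was 1278 CPM per kb.

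**Figure D1:**
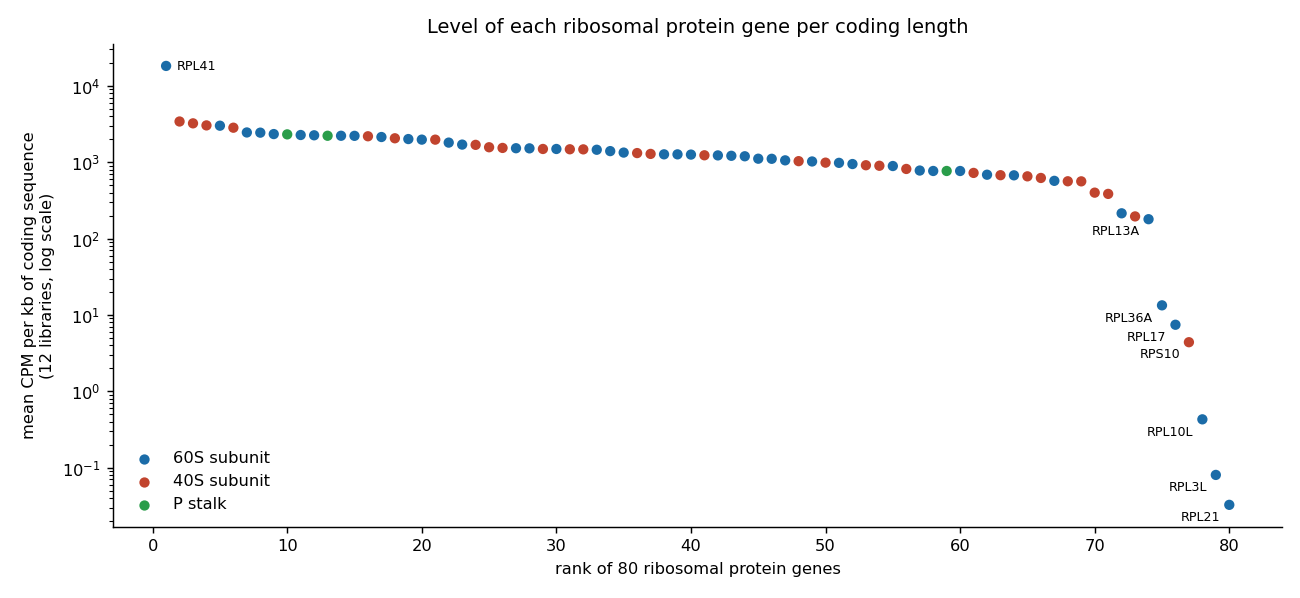
Mean CPM per kilobase of coding sequence over 12 libraries (vertical axis, log scale) for 80 ribosomal protein genes in order of level (horizontal axis), coloured by subunit. RPL41 stands highest at 18263 CPM per kb, most members form a shelf about their median of 1278 CPM per kb, and a tail of members from RPL13A at 180 CPM per kb to RPL21 at 0.0326 CPM per kb falls away from it.

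Members whose proteins are needed in every ribosome appear in that tail. RPL21 had 2 counts in E2 library b, 1 count in anastrozole plus E2 library b and 0 in the other 10 libraries, where 0 counts allow a level of up to 0.186 to 0.303 CPM by a floor of 3 counts, depending on the library. RPS10 averaged 2.18 CPM, RPL17 4.11 CPM and RPL36A 4.25 CPM. The tests passed none of these 4 members in any of the 7 comparisons. The 3 readthrough rows that join RPS10, RPL17 and RPL36A to a neighbouring gene held 0 counts in every library. In GRCh37, 100% of the 100-base windows of the RPL21 transcript are found letter for letter elsewhere in the genome, as are 67.3% of those of RPS10, 64.1% of RPL17 and 45.3% of RPL36A. Shared windows are common in the family: 57 of 81 members had some, and RPS27 (94.1%) and RPL39 (92.8%) had more than RPS10 yet averaged 714 and 340 CPM. The levels of members with many shared windows depend on how reads with several places in the genome were treated, and alignments marked as not unique were counted on no gene. The readthrough genes share 31.5% of the exon bases of RPS10 and 32.9% of those of RPL17. The part of shared windows and overlapping annotation in these low counts was not tested.

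**Figure D2:**
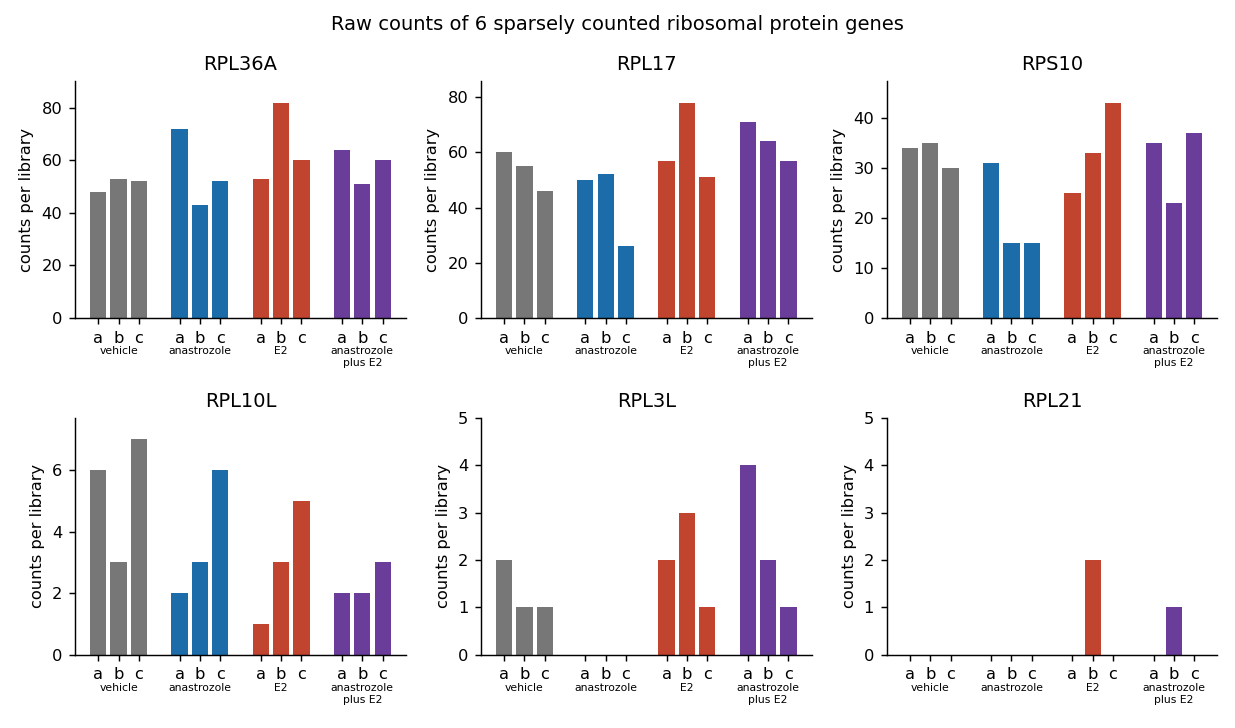
Raw counts per library (bars; linear axes that differ between panels) of RPL36A, RPL17, RPS10, RPL10L, RPL3L and RPL21 in the 4 groups, libraries a, b and c. RPL36A, RPL17 and RPS10 are low but present in all 12 libraries, and RPL21 has counts in E2 library b and combination library b.

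Tissue-restricted paralogs were at or near the limit of detection. RPL3L, a paralog of RPL3 known from heart and skeletal muscle, had 0 to 4 counts per library, against 1536 CPM for RPL3. RPL10L, the testis paralog of RPL10, had 1 to 7 counts per library, against 958 CPM for RPL10. RPL39L and RPS27L were expressed: RPL39L averaged 32.8 CPM beside 340 CPM for RPL39, and RPS27L, a p53 target, 49.2 CPM beside 714 CPM for RPS27. Nearly all windows of RPS27 and RPL39 are found elsewhere in the genome, against 0.47% of those of RPS27L and 0% of RPL39L, so the levels within these pairs are given side by side only.

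Before the groups were compared, the members were seen to rise and fall together from library to library. For these 74 members, log2 CPM was taken relative to each gene's mean over the 12 libraries. The median member stood at 0.068, -0.054 and -0.021 in the vehicle libraries (in the order a, b, c, here and below), at 0.070, 0.017 and -0.15 in the anastrozole libraries, at -0.089, -0.00035 and 0.068 in the E2 libraries and at 0.12, -0.0059 and 0.018 in the combination libraries. In anastrozole plus E2 library a all 74 members were above their own mean, while in anastrozole library c and in E2 library a only 2 of 74 were. The 2286 other genes with at least 100 CPM had medians between -0.018 and 0.026 in the same 12 libraries. The pooled SD of the family's median between libraries of a group was 0.083 on the log2 scale, so a shift of the whole family of that size is within the spread of this experiment.

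The libraries with the lowest family level also had the largest shares of alignments that were not unique, 7.40% in E2 library a and 7.17% in anastrozole library c, against 6.60% to 6.85% in the other 10. The 20 members with the shortest coding sequences moved more than the family, to -0.16 in E2 library a and -0.20 in anastrozole library c. RPS29, which encodes one of the smallest 40S proteins, had the largest coefficient of variation within groups among the 74, 15.03%, and fell to 359 CPM in anastrozole library c and 386 CPM in E2 library a from 497 to 573 CPM in the others. RPL37 (12.4%) and RPS21 (10.9%) followed it. The median member varied by 6.39%. The part of the libraries' alignment shares in these levels was not tested. The summed CPM of 60S members (stalk included) over 40S members stayed between 1.76 and 1.83 in all 12 libraries.

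**Figure D3:**
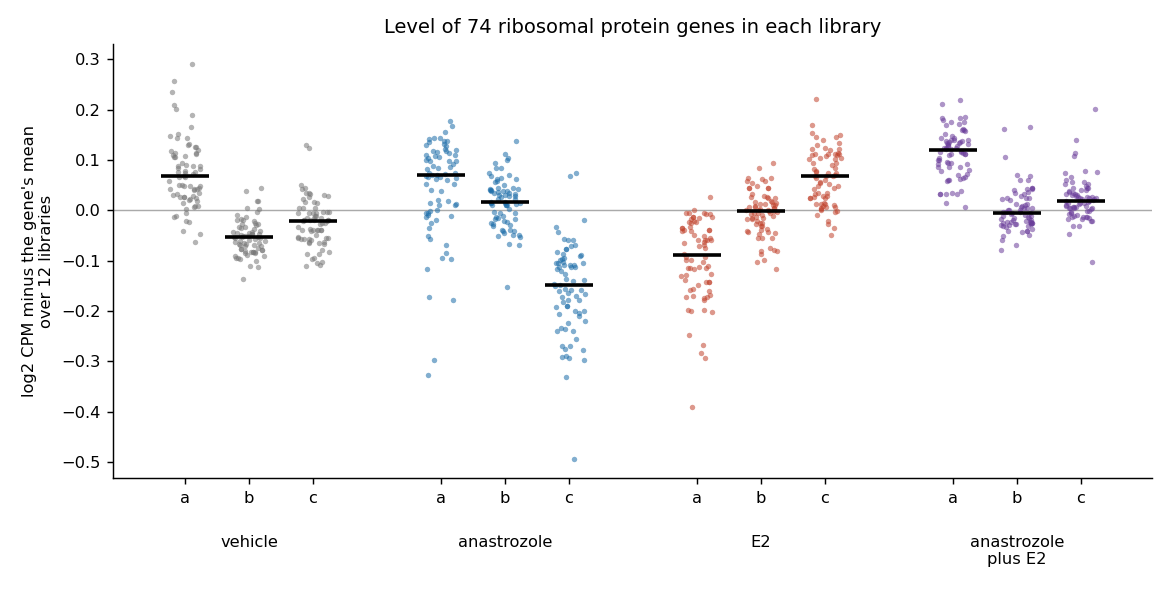
Each point is 1 of 74 ribosomal protein genes in 1 library, as log2 CPM minus that gene's mean over the 12 libraries, and black bars are the medians. The medians run from -0.15 in anastrozole library c to 0.12 in anastrozole plus E2 library a, and the ranges of the 4 groups overlap.

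With anastrozole alone, 5 members fell and none rose: RPS15 and RPS16 of the 40S subunit, RPL8 and RPL28 of the 60S subunit, and RPLP2 of the stalk. The falls were between 9.28% and 11.3%. Across all genes 2.27% were called lower and 1.40% higher in this comparison, so 5 of 81 members lower (6.17%) is above the share over the whole table. Members are far more abundant than most genes, however, and among the 2286 other genes with at least 100 CPM 13.3% were called in either direction. The median member changed by -0.021 on the log2 scale and the median of all 14209 genes with at least 1 CPM by -0.0017.

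RPL8, near the peptidyl transferase centre, had 1218, 1137 and 1158 CPM with vehicle and 992, 1109 and 1041 CPM with anastrozole. The groups did not overlap (log2 fold change -0.16, SE 0.040, edgeR adjusted p = 0.00486). RPS16 had 332, 297 and 306 CPM with vehicle and 292, 291 and 258 CPM with anastrozole, again without overlap (log2 fold change -0.15, SE 0.044, edgeR adjusted p = 0.0257). RPS15, which sits in the head of the 40S subunit near the decoding site, had 292, 240 and 250 CPM with vehicle and 217, 247 and 230 CPM with anastrozole, and here anastrozole library b lay inside the vehicle range (log2 fold change -0.17, edgeR adjusted p = 0.00893). RPL28 (-0.14, adjusted p = 0.0421) and RPLP2 (-0.15, adjusted p = 0.0311) were below every vehicle library in all 3 anastrozole libraries. These calls rested on single libraries: the number of members called was 0 without vehicle library a, 1 without vehicle library c, 2 without anastrozole library a and 3 without anastrozole library b, and without anastrozole library c it was 17, of which 14 were higher.

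With E2 alone, 12 members passed the test, 7 lower and 5 higher. The same 5 members that fell with anastrozole fell again, joined by RPL13 and RPL18 of the 60S subunit. The vehicle libraries are the same in both comparisons, so this repetition is not independent. RPS3A, RPS15A and RPS24 of the 40S subunit and RPL7 and RPL22 of the 60S subunit rose. The calls of RPS15A and RPS24 were kept in 0 of the 9 alternative fits that left out no library. Those of RPL22, which rose, and RPL13, which fell, were kept in 2 of 9 each. All changes were small, from -10.4% to -5.58% among those that fell and from 5.47% to 7.14% among those that rose. Over all genes 5.95% were called lower and 6.06% higher with E2, and 7 and 5 of the 81 members. Of the other genes with at least 100 CPM 38.1% were called, against 14.8% of members. The median member changed by -0.0043 on the log2 scale, against 0.0061 for all genes with at least 1 CPM.

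RPS16 had 268, 278 and 299 CPM with E2 against 297 to 332 CPM with vehicle, so E2 library c overlapped (log2 fold change -0.14, SE 0.033, edgeR adjusted p = 0.000446). RPS15 at 225.7, 235.4 and 238.5 CPM was below every vehicle library (-0.16, SE 0.035, adjusted p = 0.000247). RPL28, a 60S protein found in eukaryotes but not in bacteria, had 286, 294 and 326 CPM against 317 to 367 CPM, with overlap in library c (-0.16, SE 0.034, adjusted p = 0.000183). Among those that rose, RPL22 was the one member with no overlap, at 479, 492 and 522 CPM against 463 to 476 CPM (0.091, SE 0.031, adjusted p = 0.0313). RPS3A had 1207, 1269 and 1297 CPM against 1141 to 1209 CPM (0.10, SE 0.028, adjusted p = 0.00496). The balance of directions changed with single libraries. Without vehicle library a 11 members were called, all higher, and without E2 library a 11 were higher and 3 lower. Without vehicle library b 2 were higher and 14 lower, without vehicle library c 5 and without E2 library c 9 were called, all lower, and without E2 library b 1 was higher and 5 lower. Without library a of both groups, a choice made after the data were seen, 28 were called, all higher.

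With anastrozole plus E2, RPS2 was the one member called against vehicle. RPS2 lies at the entry of the mRNA channel of the 40S subunit. It had 1235, 1207 and 1407 CPM in the vehicle libraries and 1297, 1444 and 1484 CPM with the combination, with overlap (log2 fold change 0.13, SE 0.036, edgeR adjusted p = 0.0134). Over all genes 2.71% were called higher and 2.33% lower, and 16.1% of the other genes with at least 100 CPM were called. The family as a whole was tilted upwards, although RPS2 alone passed the test. Of 78 members with at least 1 CPM, 70 had a positive log2 fold change. The median of the 78 was 0.047, against 0.0015 for all genes. That median is below the pooled SD between libraries given above. Leaving out 1 library moved it to between 0.0079 (without combination library a) and 0.093 (without vehicle library a). Without vehicle library a 23 members were called and without combination library b 4, all higher, and without vehicle library b, or without combination library c, none were. With an offset for GC content 12 members were called, all higher, and RPS2 was not among them (0.14, adjusted p = 0.439). With the replicate letter as a block 20 were called, and 26 with the block and the offset, all higher.

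Between anastrozole alone and E2 alone no member passed the edgeR test after adjustment, and 3 of 81 had an unadjusted p under 0.05. The DESeq2 and limma-voom tests also called 0. The background was 1.33% of all genes. The 3 members with the smallest p were RPLP0, RPL8 and RPSA, with adjusted p of 0.493, 0.539 and 0.688, and the median member differed by -0.013 on the log2 scale.

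Against E2 alone, the combination had 13 members higher and none lower, where 3.23% of all genes were higher and 3.51% lower. Of the other genes with at least 100 CPM 27.6% were called in either direction, against 13 of the 81 members. Among them were RPL28, RPS16, RPL13, RPS19, RPS15, RPLP2, RPL18, RPL36, RPS9, RPS27L, RPL8 and RPS12, and the rises were 6.32% to 13.03%. RPS16 had 336, 303 and 299 CPM with the combination against 268, 278 and 299 CPM with E2, which left the groups apart by less than 1 CPM (log2 fold change 0.15, SE 0.032, edgeR adjusted p = 0.000233). Among the called members RPS27L rose most, from 41.3, 48.0 and 49.4 CPM to 53.2, 51.2 and 52.9 CPM (0.18, SE 0.056, adjusted p = 0.0300), and its paralog RPS27 did not pass the test (-0.017, adjusted p = 0.848). RPL28 had the smallest adjusted p (0.16, adjusted p = 0.000141). With the GC offset RPS16 and RPS27L were the ones kept of these 13, and RPL28 came to 0.093 (adjusted p = 0.137). The count was 3 without E2 library a, 26 without E2 library c, 7 (1 of them lower) without combination library a and 8 without combination library c. In libraries b and c alone, chosen after the data were seen, 3 members were higher and 11 lower.

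Against anastrozole alone 9 members were higher with the combination and none lower, where 1.71% of all genes were higher and 1.18% lower. Of the other genes with at least 100 CPM 10.7% were called, against 11.1% of the members. Among them were RPL8, RPL13, RPS16, RPL13A, RPLP2, RPS9, RPS15 and RPL28, and the rises were 9.97% to 12.9%. RPL8 had 1196, 1170 and 1154 CPM with the combination against 992, 1109 and 1041 CPM (log2 fold change 0.16, SE 0.041, edgeR adjusted p = 0.00729). With the GC offset RPS16 (0.14, adjusted p = 0.00241) was the one kept of these 9. The count was 1 without combination library a or c, 2 without combination library b and 6 without anastrozole library b, and without anastrozole library c 7 members were higher and 2 lower. Both comparisons share the combination libraries, and of the members they called 8 were common to both.

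**Figure D4:**
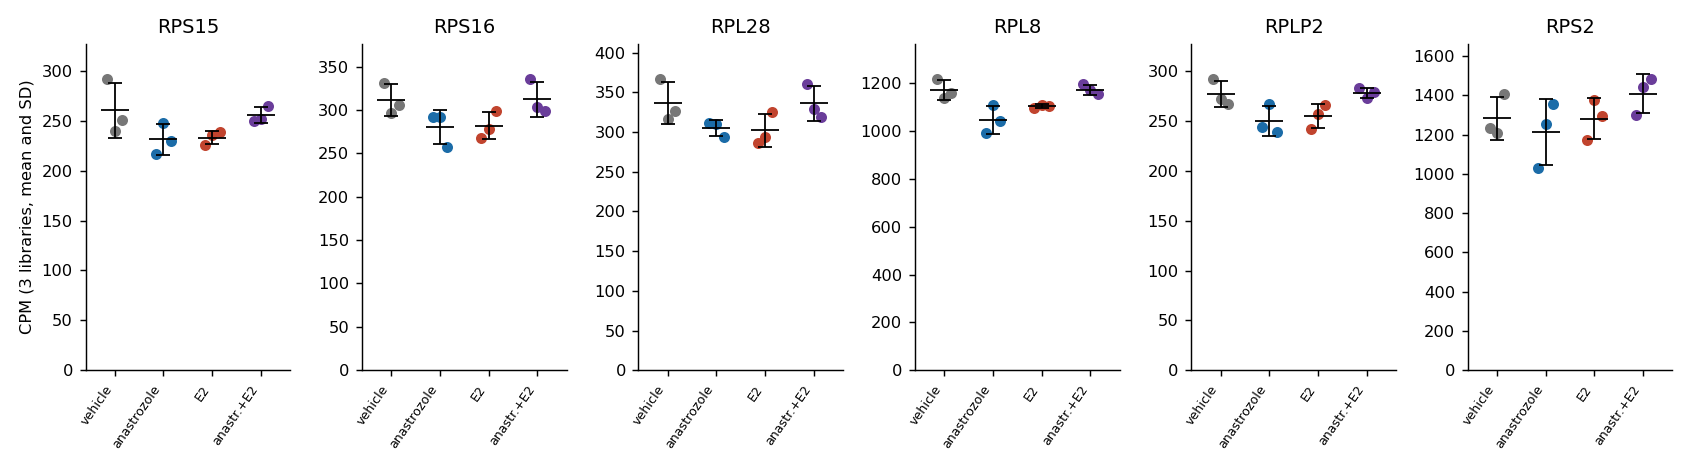
CPM of RPS15, RPS16, RPL28, RPL8, RPLP2 and RPS2 in the 4 groups; points are the 3 libraries, bars the mean and SD, and the axes start at 0. The means of RPS15 to RPLP2 are lower with anastrozole or E2 alone and back at the vehicle level with both (RPS16 at 312 ± 17.97 CPM with vehicle, 280 ± 19.8 with anastrozole, 282 ± 15.7 with E2 and 312 ± 20.3 with both), and RPS2 is highest with both.

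The interaction asks whether anastrozole acts differently in the presence of E2, as the log2 change on adding anastrozole to E2 minus the log2 change on adding it to vehicle. It was positive for all 12 members called, where 5.93% of all genes were called with a positive and 4.93% with a negative interaction. Of the other genes with at least 100 CPM 34.2% were called in either direction, against 14.8% of the members. Among them were RPS16 (0.30, SE 0.054, edgeR adjusted p = 3.72e-06), RPL28 (0.30), RPS15 (0.30), RPL8 (0.25), RPLP2 (0.28), RPS9 (0.23), RPL36 (0.20), RPS19 (0.19), RPL18 (0.17), RPL35 (0.16) and RPLP1 (0.14). The median over members with at least 1 CPM was 0.071, against -0.00035 for all genes. With 1 library left out the members' median lay between 0.0049 (without anastrozole library c) and 0.12 (without anastrozole library a). Among the 74 members with at least 10 CPM, RPL22 was the most negative (-0.12), and RPS28 had a term of 0.31 that did not pass (adjusted p = 0.360). RPS16, RPL28, RPS15, RPL8, RPLP2 and RPS9 kept the call in each of the 12 fits that left out 1 library. When anastrozole library c and E2 library a, the libraries with the lowest family level, were left out together (a choice made after the data were seen), those 6 stayed positive and called, and 13 other members were called with a negative interaction. The number called was 6 without vehicle library a, 7 without E2 library a and 7 without combination library a, and without anastrozole library c 6 of 17 were negative.

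Within the family the direction of change followed base composition. The 5 members that fell with anastrozole have coding GC contents between 56.2% and 63.0%. The 7 that fell with E2 cover the same range, and the 5 that rose with E2 lie between 42.7% and 46.9%. The 12 members of the interaction had a median coding GC of 59.6%, and the other 62 members with at least 10 CPM 49.8%. Spearman's rho between log2 fold change and coding GC over the 74 members was -0.77 for anastrozole, -0.66 for E2 and -0.44 for the combination against vehicle, and 0.72 for the interaction. These are descriptions across genes that share the same libraries. With exon GC in place of coding GC, rho over the members was -0.62, -0.47, -0.32 and 0.55 in the same order. Over 2275 other genes with at least 100 CPM and a known exon GC content it was -0.64, -0.63, -0.087 and 0.79, so outside the family the relation was seen for anastrozole, E2 and the interaction and was near 0 for the combination. An edgeR fit with an offset that removes each library's trend with exon GC left fewer calls in these comparisons, except for the combination against vehicle, where the calls went from 1 to 12. Of the 5 members that fell with anastrozole it kept RPS16 (log2 fold change -0.14, adjusted p = 0.00463), and RPS15 came to -0.049 with an adjusted p of 0.763. For the interaction it kept RPS16 (0.27, adjusted p = 2.68e-05) and RPLP1 (0.15, adjusted p = 0.0115), and RPL8 came to 0.018 with an adjusted p of 0.956. In the E2 comparison RPS16 alone of the 12 remained, at -0.13 (adjusted p = 0.000722), and RPL8 turned to 0.039. RPS16 kept its call with the GC offset in all 5 comparisons in which it was called, but with limma-voom it lost the call in 4 of them, with filterByExpr in 3 and with the DESeq2 test in 2, and with anastrozole it was called in 2 of 6 fits that left out 1 library. Its interaction was called in each of these fits. Whether the composition of the libraries or the treatment moved the GC-rich members was not tested.

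**Figure D5:**
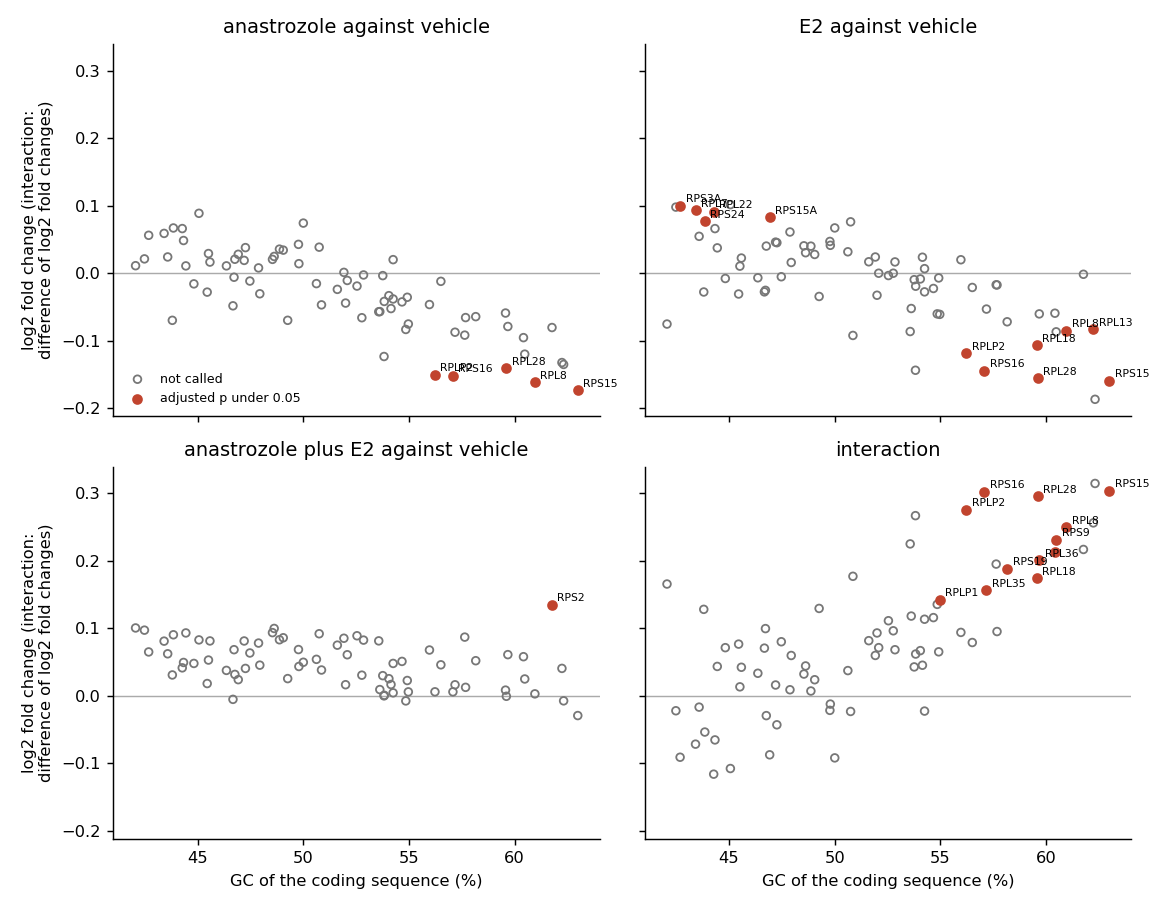
Log2 fold change of 74 ribosomal protein genes (vertical axis; for the interaction, a difference of log2 fold changes) against the GC content of the coding sequence in percent (horizontal axis), with members passing the test filled. Fold changes fall with GC for anastrozole (rho -0.77) and E2 (rho -0.66) and rise with GC for the interaction (rho 0.72).

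RPS6, RPL5, RPL11, RPSA and RPS27A, which were picked for known roles beyond the assembled ribosome, passed no test in the main edgeR fits, which had no offset. RPS6, the phosphorylation target of S6 kinase, had log2 fold changes against vehicle of 0.038 with anastrozole, 0.045 with E2 and 0.041 with both. RPL5 and RPL11, which carry 5S rRNA and inhibit MDM2, had 0.048 and 0.039 with anastrozole, 0.066 and 0.076 with E2, and 0.049 and 0.092 with both. RPSA, the laminin receptor precursor, and RPS27A, a fusion of ubiquitin with a 40S protein, had 5.89e-05 and -0.028 with E2. With the GC offset RPSA was lower with anastrozole (-0.10, adjusted p = 0.0246) and had a positive interaction (0.18, adjusted p = 0.000618), and RPL11 was higher with the combination than with vehicle (0.093, adjusted p = 0.0289). The offset used the exon GC of RPSA, 43.4%, where its coding GC is 52.8%, so the calls of RPSA depend on that choice of measure. Within the stalk RPLP2 was called in 5 comparisons, RPLP1 in the interaction only and RPLP0 in none. RPLP0 is often used as a reference gene, and it ranged from 2050 to 2308 CPM over the 12 libraries, with a coefficient of variation within groups of 2.53%. RPL3 (1.81%) was the steadiest of the 74.

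Among ribosomal protein genes whose symbols fall outside the rule, FAU was called. FAU, which encodes RPS30 fused to a ubiquitin-like protein, was higher with the combination than with E2 (log2 fold change 0.11, adjusted p = 0.0211) and had a positive interaction (0.19, adjusted p = 0.00764). Both calls were lost with the GC offset (0.064, adjusted p = 0.476, and 0.10, adjusted p = 0.250). RACK1 (listed as GNB2L1) passed no test. Of the 7 such genes in the table none passed the test against vehicle in any group.

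Other genes of ribosome production were counted beside the shares over all genes, which were 1.40% higher and 2.27% lower with anastrozole, 6.06% and 5.95% with E2, and 2.71% and 2.33% with both. Of 50 assembly factors 1 rose and 4 fell with anastrozole, 5 rose and 3 fell with E2, and 2 rose and none fell with both agents. NMD3, the export adaptor of the 60S subunit, rose in all 3 comparisons with vehicle (0.22 with anastrozole, 0.22 with E2 and 0.15 with both). BOP1, which acts in 60S maturation, fell with anastrozole (-0.33, adjusted p = 0.00417). Of 19 RNA polymerase I genes 2 rose and 5 fell with E2. TAF1D, a subunit of the polymerase I selectivity factor, rose with anastrozole (0.33), E2 (0.41) and both (0.27), while UBTF, which opens ribosomal DNA, fell with E2 (-0.24). Of 77 mitochondrial ribosomal protein genes 5 fell and none rose with anastrozole, 7 fell and 1 rose with E2, and 3 fell and none rose with both. MRPL12 (-0.27 with anastrozole, -0.18 with E2) and MRPS34 (-0.22 and -0.26) fell with each agent. BOP1, MRPL12 and MRPS34 were not called in these comparisons with the GC offset, while NMD3, TAF1D and UBTF were. MRPS11 also fell with each agent and kept both calls with the offset (-0.24, edgeR adjusted p = 0.0168, with anastrozole and -0.18, adjusted p = 0.0303, with E2). MRPL4 with anastrozole, MRPL16 with E2, and MRPL27, MRPL38 and MRPL49 with both agents were kept too. The other mitochondrial calls against vehicle were lost with the offset.

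Other mRNAs of the TOP class, which share the pyrimidine start, and the hosts of small nucleolar RNAs were counted in the same way. Of 19 other TOP mRNAs 3 rose and 1 fell with anastrozole, 6 rose and none fell with E2, and none passed with both. In the same comparisons 13.3%, 38.1% and 16.1% of the genes with at least 100 CPM outside the family were called in either direction. Of the calls among TOP mRNAs the GC offset kept those of EIF4B, a translation initiation factor, with anastrozole (0.13, adjusted p = 0.000797) and with E2 (0.075, adjusted p = 0.0235), while TPT1, PABPC1, EIF3E, EIF3H and NAP1L1 lost their calls with E2. Of 13 host genes 1 rose with anastrozole, 6 with E2 and 5 with both, and none fell. SNHG12 had the largest rise, 0.47 with E2 and 0.61 with both on the log2 scale. GAS5 rose by 0.22 with E2 and 0.20 with both, and ZFAS1 rose in all 3 comparisons with vehicle (0.19, 0.15 and 0.22). With the GC offset GAS5 (0.16, adjusted p = 0.00259), SNHG12 and ZFAS1 were still called with E2, and SNHG6 was not (0.092, adjusted p = 0.303). The difference between these lists and the members was not tested.

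Among 17 regulators 2 rose and 3 fell with E2, where 6.06% of all genes rose and 5.95% fell, and 2 rose with both agents, where 2.71% of all genes rose. Of the 5 calls with E2 the GC offset kept RHEB and LARP1. MYC had 42.4 ± 2.70 CPM (SD, n = 3) with vehicle, 42.1 ± 0.447 with anastrozole, 45.7 ± 0.128 with E2 and 53.6 ± 1.19 with both. It rose with the combination over vehicle (0.34), over anastrozole (0.35) and over E2 (0.23, adjusted p = 0.00199). Its interaction was 0.24 (adjusted p = 0.0628). RHEB, the GTPase that activates mTORC1, rose with E2 (0.26) and with both (0.24). LARP1 fell with E2 (-0.12, adjusted p = 0.00369).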

How the data were processed

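RNA-seq libraries of T47D cells (3 for each of 4 groups) were used as the deposited gene counts. The submitters' processing notes name TopHat2 2.0.14, Bowtie2 2.2.6 and HTSeq on hg19. The annotation and the strand setting of the counting are not given in the sources used here, so reads of overlapping genes on opposite strands may not be told apart. The authors' counts were raw whole numbers, and 5 summary lines were removed; alignments without a feature were 58.6% to 59.9% of the total.

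Genes with 0 counts throughout (4238) were removed. Counts were scaled by TMM and tested with edgeR 4.0.16 (robust quasi-likelihood, R 4.3.3) on the libraries of each pair of groups, the interaction on all 12. P-values were Benjamini-Hochberg adjusted over 21132 genes at 0.05. Gene positions and lengths came from GENCODE (lifted to GRCh37), start windows from RefSeq. The main fit of anastrozole against vehicle was tested on simulated data in which each gene was drawn on its own. The simulation held no shift shared by a family and no trend with GC, so it does not bear on calls under these. Alternatives were DESeq2 1.42.0, limma-voom 3.58.1, other scalings and filters, all libraries in 1 fit, the replicate letter as a block, a GC offset, and leaving out libraries.

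Named genes were up to 12 called members per comparison by adjusted p (the 3 smallest where fewer passed), the 10 most abundant and the lowest, the most changed, paralogs, stalk and regulatory members, the 3 most variable, and up to 3 called genes per other list. RPS10, RPL17, RPL36A, and RPSA and RPL11 under the offset, were named after their values were seen. So were further genes of the other lists that are named for their calls with the GC offset. Some items are not reported here. The members and lists were chosen with earlier results of these data known.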

Additional observations from a re-analysis of the deposited data

Results flagged for a closer look

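The effect of anastrozole differed with and without E2 by the edgeR interaction test for 12 members, among them, with their interaction terms on the log2 scale, RPS16 0.30, RPL28 0.30, RPS15 0.30, RPL8 0.25, RPLP2 0.28, RPS9 0.23, RPS19 0.19, RPL36 0.20, RPL18 0.17, RPL35 0.16 and RPLP1 0.14. In libraries b and c only, a selection made after the data were seen, RPS16 (0.19, adjusted p = 0.0377) and RPL8 (0.16, adjusted p = 0.0492) were still called, and the other 9 named here were not. With the GC offset RPS16 (0.27) and RPLP1 (0.15) were the ones kept of these. That offset goes by exon GC, which is below coding GC for both. With it RPL8 came to 0.018 (edgeR adjusted p = 0.956), and RPL35 (-0.049) and RPL36 (-0.074) turned negative without a call. Groups of 3 libraries are too small for a test of outlying samples.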

How the results depend on the processing

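The median member's log2 fold change moved by less than the spread between libraries in 117 of 119 alternative values, and the share of gene counts in 48 of 48. For the median that spread was 0.083, larger than the median in any comparison, so a change of sign could pass as no move. With anastrozole the median went from -0.021 to 0.056 without anastrozole library c and was counted so. The 117 values therefore do not show that the direction of the median was stable. Which members passed the test depended on the processing: the count of called members stayed within 1.5 times in 52 of 119. DESeq2's size factors kept it so in every comparison, and library size alone did except for 3 with the combination against vehicle. In the order anastrozole, E2 and combination against vehicle, combination against E2, combination against anastrozole, and interaction (5, 12, 1, 13, 9 and 12 called), the DESeq2 test called 1, 4, 0, 7, 2 and 7, limma-voom 0, 0, 0, 1, 0 and 7, filterByExpr 1, 7, 0, 9, 1 and 7, and the GC offset 2, 2, 12, 3, 3 and 5. With all 12 libraries in the fit, E2 gave 7, the combination 0 and the combination against E2 6. Libraries b and c only gave 1, 28, 11, 14, 2 and 2, and 7 between anastrozole and E2. For the combination against E2 their median was -0.034. Without both libraries lowest in the family the interaction gave 20 calls and a median of -0.041. Leaving out 1 library gave 0 to 17, 5 to 16, 0 to 23, 3 to 26, 1 to 9 and 6 to 17 calls, and 0 to 1 between anastrozole and E2. The causes were not tested.

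Libraries with the same letter deviated together weakly or not at all (correlations -0.146 to 0.308), so they share only a letter. With the letter as a replicate block the counts were 7, 7, 20, 14, 9 and 20, and 1 between anastrozole and E2, and with the block and the GC offset 3, 3, 26, 3, 15 and 6, and 1. Of values for named members 499 kept direction and call, 394 lost the call and 11 reversed. With the GC offset, without and with the block, RPL8 came to 0.039 and 0.039 with E2 and to -0.025 and -0.025 for the combination against E2, RPL36 to -0.011 and -0.011 there and to -0.074 and -0.075 in the interaction, and RPL35 to -0.049 and -0.053 in the interaction. In libraries b and c only, RPS12 came to -0.0013 for the combination against E2. Depth limits RPL21, RPL3L and RPL10L, whose counts were at most 7 per library.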
